A study of Mus musculus with 12 samples.

Results

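Imprinted genes are transcribed from only 1 of their 2 parental copies, and RNA from 39 of them was followed in germ cells and somatic cells of the fetal mouse ovary after prenatal exposure to dexamethasone (dex), which activates the glucocorticoid receptor (GR). The 39 genes are a fixed list of well-known imprinted loci, matched by gene symbol to a table of 54532 gene identifiers, and all 39 were found. By textbook knowledge 25 are expressed from the paternal copy and 14 from the maternal copy, and for some of them (Ube3a, Gnas, Trappc9, Copg2, Ddc and Grb10 among them) the parental bias is limited to certain tissues or transcripts. The libraries measured total RNA per gene, so the parental copy of origin was not measured and the classes are background.

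Pregnant dams received dex by intraperitoneal injection at 10 µg per g of body weight once a day on 4 days, from embryonic day E12.5 to E15.5, or saline vehicle on the same days. Ovaries were collected at E15.5 from embryos of the Tg(Pou5f1-EGFP)2Mnn strain, whose OCT4-GFP transgene marks germ cells, and flow cytometry separated GFP-positive germ cells from all GFP-negative ovarian cells. The 2 cell types and 2 treatments gave 4 groups of 3 libraries each, with no library from uninjected dams. By the study's methods each library was sorted from ovaries pooled across whole litters from separately dosed dams, so the spread between libraries is one between pools, and the GFP-negative fraction is a mixture of cell types. Libraries held 14658503 to 18245507 counts, the reads assigned to genes. Germ cell markers were higher in the GFP-positive libraries for 13 of 14 tested genes and lower for 1, and all 24 general somatic markers were lower there.

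Imprinting is set by DNA methylation at control regions, laid down anew in each sex's germline after the inherited marks have been erased. In mice this erasure is largely complete in primordial germ cells before the sex-specific program starts, so the sorted female germ cells belong to the stage between erasure and the later marking of growing oocytes, whereas somatic cells keep the inherited pattern. Imprinted genes are known for roles in fetal growth, including growth factor signalling and cell cycle exit, and glucocorticoids are known to restrain fetal growth.

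The promoter sequences of 3 genes are shown because they are among the 4 genes whose dex effect differed between the cell types and their windows hold no annotated exon. Each run is the 250 bases before a RefSeq transcription start, read 5′ to 3′ on the gene's strand (GRCm38.p6), with CG dinucleotides, the sites that imprinting marks can methylate, in capitals. Dlk1 lies on the plus strand (chr12:109452573-109452822) and holds 8 CG. Grb10, on the minus strand, has an outer start (chr11:12037421-12037670) with 40 CG and an inner start (chr11:12027972-12028221) with 8. Slc38a4, also on the minus strand, is shown at the outermost of its 3 listed starts (chr15:97055957-97056206), with 3 CG.
Dlk1: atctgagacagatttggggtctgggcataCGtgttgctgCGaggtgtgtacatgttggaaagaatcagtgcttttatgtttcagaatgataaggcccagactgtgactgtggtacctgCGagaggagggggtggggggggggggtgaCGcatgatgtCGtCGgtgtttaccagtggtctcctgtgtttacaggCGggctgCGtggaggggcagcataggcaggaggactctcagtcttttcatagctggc
Grb10 outer start: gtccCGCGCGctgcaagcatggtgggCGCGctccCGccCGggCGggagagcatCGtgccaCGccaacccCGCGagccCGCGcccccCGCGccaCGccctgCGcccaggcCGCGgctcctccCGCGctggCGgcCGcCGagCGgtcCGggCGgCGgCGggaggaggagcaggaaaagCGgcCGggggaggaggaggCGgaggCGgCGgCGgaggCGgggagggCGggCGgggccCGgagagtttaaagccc
Grb10 inner start: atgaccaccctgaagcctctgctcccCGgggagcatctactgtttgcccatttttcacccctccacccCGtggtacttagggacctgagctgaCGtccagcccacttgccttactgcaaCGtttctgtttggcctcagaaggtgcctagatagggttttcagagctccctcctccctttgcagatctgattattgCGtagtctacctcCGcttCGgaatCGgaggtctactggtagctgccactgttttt
Slc38a4 outermost start: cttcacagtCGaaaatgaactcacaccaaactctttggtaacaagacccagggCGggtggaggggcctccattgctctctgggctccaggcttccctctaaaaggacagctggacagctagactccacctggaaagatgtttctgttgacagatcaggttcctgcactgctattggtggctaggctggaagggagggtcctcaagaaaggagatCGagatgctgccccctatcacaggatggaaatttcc
The GR palindrome core ACANNNTGT, searched on both strands, was in none of the 10 windows of the genes called in a dex test and in 2 of the 44 windows found for 31 of the 39 genes (4.55%), beside 5.84% of all 32851 windows. A single arm of such a site, AGAACA on either strand, was in 2 of the 10, in 18.2% of the 44 and in 16.1% of all. The hexamer TGCCGC, read by the imprint-protecting protein ZFP57, was in 15.9% of the 44 windows and 8.68% of all, and on the median the 44 windows held 9 CG and all windows 6. Some of the 44 windows overlap, as for Mest (with TGCCGC) and Gnas (with AGAACA), so the same letters were counted more than once. The 10 windows are those of Dlk1, Grb10, Kcnq1ot1, Ndn, Nnat, Plagl1 and Slc38a4, where Grb10 and Slc38a4 have several starts. H19, Rtl1 and Sgce, also called in a dex test, had no window and were not searched. No match says only that these letters are not in these 250 bases.

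The first comparison asked how far the imprinted genes differ between the cell types, with saline libraries alone. Of the 39 genes, 36 passed the low-count filter and all 36 were called by edgeR's quasi-likelihood test with Benjamini-Hochberg (BH) adjustment (adjusted p of 0.05 or less), 29 lower and 7 higher in germ cells. Of all 17941 genes tested, 42.9% were called lower and 43.1% higher. The lower genes comprised 20 of 24 tested paternally expressed genes and 9 of 12 maternally expressed ones. The median log2 fold change (germ minus somatic) was -2.68 over the 36, -3.22 for the paternal class and -2.29 for the maternal class, beside 0.00 over all genes tested. Genes that pass the filter through one cell type alone are prone to differ, so these counts describe the list and test nothing about it. In total the 39 genes took 0.125% to 0.165% of all counts in the germ cell libraries, 1.55% to 1.60% in somatic cells after saline and 1.77% to 1.97% after dex.

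**Figure D1:**
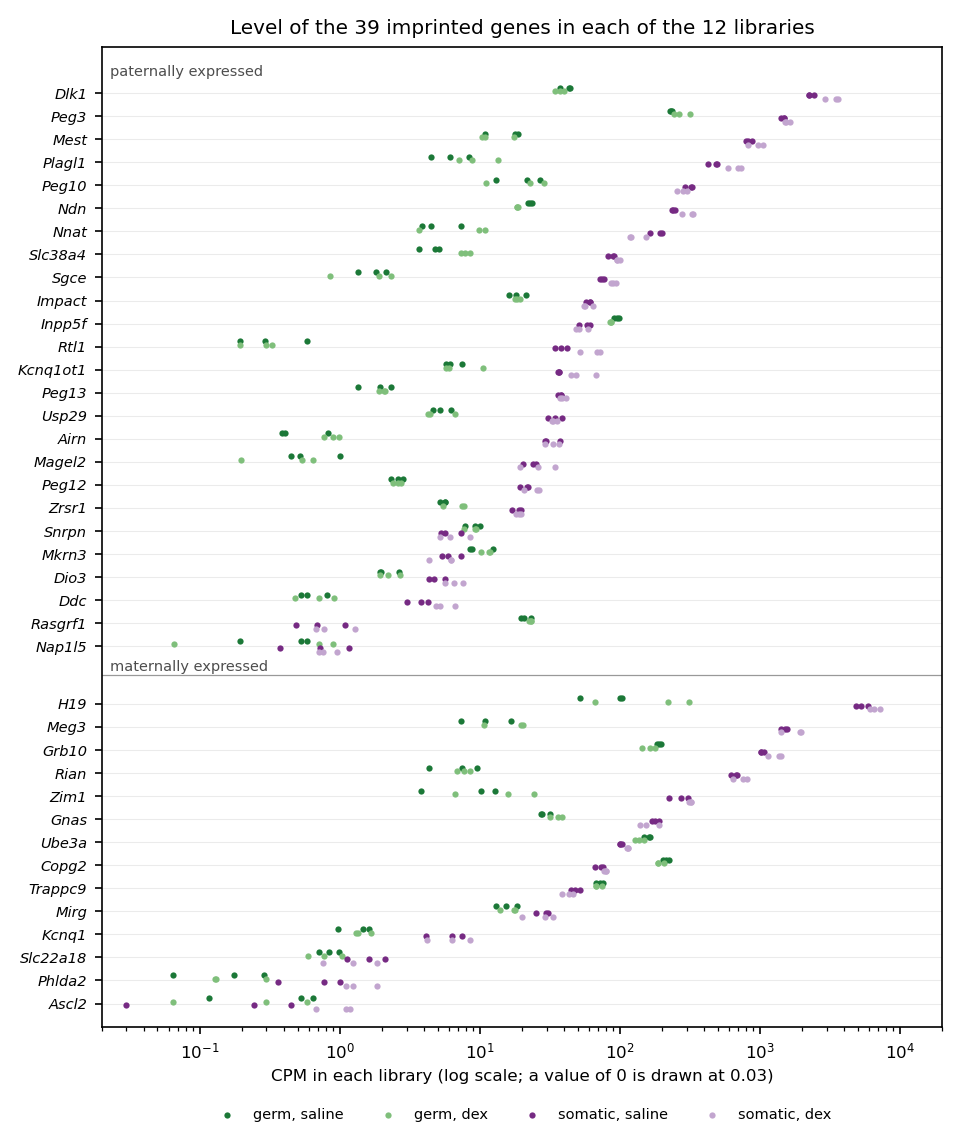
Level of each imprinted gene in each of the 12 libraries, in CPM (counts scaled to library size, log axis), with 1 point per library, colours for the 4 groups, and genes ordered by somatic level within each parental class. For most genes the green germ cell points lie far to the left of the purple somatic points, while Rasgrf1, Copg2 and Inpp5f lie to the right, and Ascl2 is at 0 in 1 somatic library.

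The Dlk1-Dio3 domain on chromosome 12 held the 3 genes with the largest germ cell deficits. Meg3 (chr12:109541001-109571726), a long noncoding RNA of the maternal copy, was at 1515, 1564 and 1408 CPM (counts scaled to one common library size with edgeR's TMM factors) in somatic cells after saline and at 7.35, 16.8 and 10.9 CPM in germ cells, in replicate order. That is a 128-fold deficit (log2 fold change -7.00, with SE 0.20 and edgeR adjusted p = 1.44e-13), and the 2 groups were far apart. Rian (chr12:109603940-109661716), a noncoding RNA that hosts small nucleolar RNAs, went from 689, 674 and 620.0 CPM in somatic libraries to 4.32, 9.56 and 7.43 CPM in germ cells, a log2 fold change of -6.53 ± 0.18 (SE). Rtl1 (chr12:109589193-109600330), a retrotransposon-derived paternal gene needed in the placenta and fetal muscle, was at 41.8, 38.2 and 34.5 CPM in somatic cells and 0.194, 0.295 and 0.58 CPM in germ cells, a log2 fold change of -6.69 ± 0.23 (SE). In germ cells Rtl1 was thus within a few counts of the floor of 3 counts, which equals 0.169 to 0.196 CPM. Floors cover counting error only, since the reads carried no molecular identifiers.

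Dlk1, which encodes a noncanonical Notch ligand that holds back differentiation, had a log2 fold change of -5.80 ± 0.09 (SE). The other two genes of the domain differed much less. Mirg, a noncoding host of microRNAs, stood at 29.6, 30.9 and 25.2 CPM in somatic cells and 18.3, 15.3 and 13.2 CPM in germ cells, a log2 fold change of -0.88 ± 0.14 (SE), and Dio3, the enzyme that inactivates thyroid hormone, at 4.33, 4.71 and 5.64 and 2.65, 1.95 and 1.97 CPM (-1.17 ± 0.26 SE). Neighbours within 1 domain therefore ranged from a deficit of 1.84-fold to one of 128-fold. Reads of Meg3, Rian and Mirg overlap annotated small RNA genes or genes on the other strand over 8.29%, 3.42% and 5.03% of their exon bases.

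Outside this domain the largest deficits were those of Plagl1, H19 and Airn. Plagl1 (chr10:13060504-13131694), a paternally expressed zinc finger factor that acts on other imprinted genes, was at 492, 487 and 425 CPM in somatic cells and 4.45, 8.38 and 6.09 CPM in germ cells, a log2 fold change of -6.21 ± 0.15 (SE). H19 (chr7:142575529-142578143), a maternally expressed noncoding RNA that limits fetal growth, went from 5282, 4838 and 5968 CPM to 52.2, 99.6 and 105 CPM (-5.97 ± 0.22 SE). Airn (chr17:12741311-12860136), the paternal antisense RNA that silences Igf2r, was at 29.0, 37.4 and 29.7 CPM in somatic cells and 0.387, 0.826 and 0.406 CPM in germ cells (-5.87 ± 0.24 SE). In none of these 3 did the germ and somatic libraries come near each other.

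A smaller group was higher in germ cells. Rasgrf1 (chr9:89909908-90026977), a paternally expressed Ras exchange factor, was at 23.3, 20.6 and 19.8 CPM in germ cells and 0.69, 1.10 and 0.485 CPM in somatic cells, a 27.9-fold excess (log2 fold change 4.80, with SE 0.24 and edgeR adjusted p = 5.01e-11). Copg2 (chr6:30747554-30896794), a coat protein of Golgi vesicles next to Mest, was at 225, 205 and 213 CPM in germ cells and 76.3, 66.6 and 73.2 CPM in somatic cells (1.57 ± 0.08 SE). Both sets of libraries were well apart. Copg2 and Mest overlap over 912 bases on opposite strands, and no source used here says whether reads were counted by strand, so reads there cannot be assigned to one gene with certainty. The deficit of Mest (log2 fold change -5.72 ± 0.15 SE), a paternally expressed hydrolase, had the opposite sign to the Copg2 excess.

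The remaining higher genes differed by less than 1 log2 unit. Inpp5f (chr7:128611328-128696425), a phosphoinositide phosphatase, was at 91.0, 98.6 and 95.1 CPM in germ cells and 58.3, 61.4 and 51.2 CPM in somatic cells (log2 fold change 0.73 ± 0.08 SE). Ube3a (chr7:59228750-59311536), the ubiquitin ligase of Angelman syndrome, was at 161, 149 and 165 and 104, 101 and 100.5 CPM (0.64 ± 0.07 SE). Trappc9 (chr15:72589620-73061204), a subunit of a vesicle tethering complex, was at 75.7, 67.1 and 72.0 and 44.8, 47.6 and 52.0 CPM (0.57 ± 0.08 SE). In all 3 the groups did not overlap.

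Mkrn3 (chr7:62417593-62420139), a paternally expressed ubiquitin ligase that restrains puberty, was at 8.84, 12.4 and 8.53 CPM in germ cells and 5.39, 5.94 and 7.39 CPM in somatic cells (0.66 ± 0.20 SE), and Snrpn, a splicing protein, had a log2 fold change of 0.56 ± 0.19 (SE). The Snrpn domain on chromosome 7 thereby split, with Snrpn, Mkrn3 and Ube3a higher in germ cells and Ndn, Magel2 and Peg12 lower (-3.40, -5.11 and -3.03 on the log2 scale). The call of Snrpn was lost when somatic saline replicate 1 or 2 was left out. Of the exon bases of Snrpn, 34.1% overlap other annotated genes, and those of Ube3a 27.3%, so their values are uncertain, as are those of Gnas (22.0%) and Usp29 (14.8%). Genes that share a start region differed from the somatic level to like or unlike degrees. Peg3 and Usp29 had log2 fold changes of -2.66 and -2.70, and Peg10 and Sgce -3.92 and -5.39.

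The other lower genes ran from -0.94 ± 0.39 (SE) for Slc22a18 to -5.15 ± 0.16 for Nnat on the log2 scale. They included the amino acid transporter Slc38a4 (-4.28 ± 0.12), the noncoding Peg13 (-4.31 ± 0.17), which lies within Trappc9 and had the opposite sign to it, and the zinc finger gene Zim1 of the Peg3 domain (-4.90 ± 0.25). Closer to the somatic level were Gnas, the stimulatory G protein subunit (-2.63 ± 0.08), Grb10 (-2.45 ± 0.07), Ddc, the aromatic amino acid decarboxylase next to it (-2.51 ± 0.34), the potassium channel gene Kcnq1 (-2.13 ± 0.31), Zrsr1 (-1.76 ± 0.15) and the translation regulator Impact (-1.69 ± 0.11). Nap1l5, Phlda2 and Ascl2 did not pass the filter and stayed at or below 1.16 CPM in every saline library. Ascl2 had 0 counts in somatic saline replicate 1, which at the floor of 3 counts allows up to 0.188 CPM.

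The dex libraries, which share no library with the saline ones, gave a like picture of germ cells against somatic cells. All 39 genes passed the filter there, 30 were called lower and 6 higher in germ cells, and Snrpn, Nap1l5 and Slc22a18 were not called (background 42.2% lower and 42% higher of 18171 genes). The median log2 fold change was -2.89, beside -0.00374 over all genes tested. Rasgrf1 was again the gene with the largest excess (4.61 ± 0.23 SE) and Rtl1 now had the largest deficit (-7.87 ± 0.24 SE). Rtl1 had only 5, 3 and 5 counts in the germ dex libraries, at or near the floor of 3, so the size of its deficit is uncertain.

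**Figure D2:**
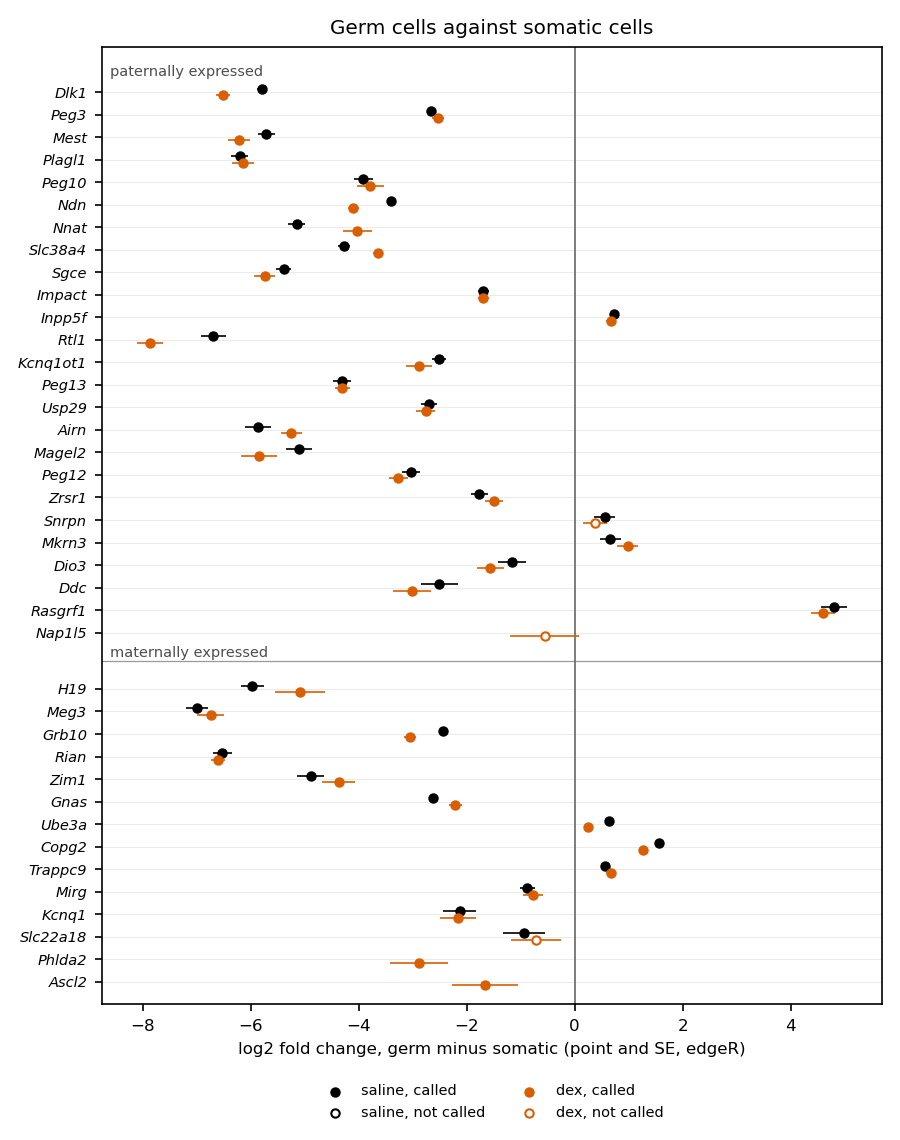
Log2 fold change of germ cells against somatic cells for each imprinted gene, with the standard error, in saline (black) and dex (orange) libraries, where filled points are called by edgeR at an adjusted p of 0.05 or less. In both treatments the Dlk1-Dio3 genes Meg3, Rian and Rtl1 lie at the left and Rasgrf1 at the right.

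Levels of different genes were compared per length, in the deposited FPKM (fragments per kilobase of gene, scaled to depth). In somatic cells after saline, H19 was highest at 2094, 1901 and 2358 FPKM, rank 10 among all genes, followed by Dlk1 at 419, 382 and 389 FPKM and Mest at 216, 203 and 196 FPKM, and the ranges of these 3 did not overlap. Grb10 (115, 109 and 109 FPKM), an adaptor that damps insulin and growth factor receptors, and Peg3 (109, 108 and 103 FPKM), a zinc finger factor with roles in growth and cell survival, came next with overlapping ranges. In germ cells after saline the order was Copg2 (44.4, 39.6 and 41.9 FPKM), H19 (21.4, 40.1 and 42.7 FPKM), Grb10 (21.2, 21.4 and 20.2 FPKM), Peg3 (17.2, 17.3 and 17.8 FPKM) and Inpp5f (11.0, 11.7 and 11.5 FPKM). There the ranges of Copg2 and H19 overlapped, as did those of H19 and Grb10, and the others were apart. H19, Grb10 and Peg3 were thus among the 5 highest in both cell types although each was far lower in germ cells.

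Because sorted germ cells can carry some somatic RNA, the level of each gene in a germ library was set beside the level of somatic markers there. Each marker's CPM in a germ library was taken as a percent of its somatic mean in the same treatment, and the marker share is the median of these percents over a list. Over the 6 germ libraries this share was 0.924% to 1.97% for 24 general somatic markers and 3.35% to 15.1% for 11 pregranulosa markers. By their own percent of the somatic mean, 31 of the 39 genes were above the general marker share in all 6 germ libraries, 8 in some of them and 0 in none of them. The 31 include Phlda2, Ascl2 and Nap1l5, each with a germ library of 1 count, below the floor of 3. Their percents are too uncertain to place them. Meg3, Rian and Rtl1 were above it in 1 library each, Dlk1, Mest and Plagl1 in 4, and Airn and Magel2 in 5. Against the larger pregranulosa share, 18 genes were above it in all 6 germ libraries, 9 in some and 12 in none. The 18 held the 7 genes higher in germ cells, the neighbours Peg3 and Usp29, Mirg and Dio3 of the Dlk1-Dio3 domain, and Gnas, Impact, Kcnq1, Kcnq1ot1, Zrsr1, Nap1l5 and Slc22a18. For Nap1l5 this rests on 1 count in germ dex replicate 1. The 12 were Airn, Dlk1, H19, Magel2, Meg3, Mest, Nnat, Plagl1, Rian, Rtl1, Sgce and Zim1, so for these the percent was at or below that of the median pregranulosa marker in each of the 6 libraries. The general marker share overlapped between dex and saline germ libraries (1.48% ± 0.525 and 1.30% ± 0.334, SD, n = 3 each, two-sided exact permutation test p = 0.7, where 0.1 is the smallest p this design allows).

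**Figure D3:**
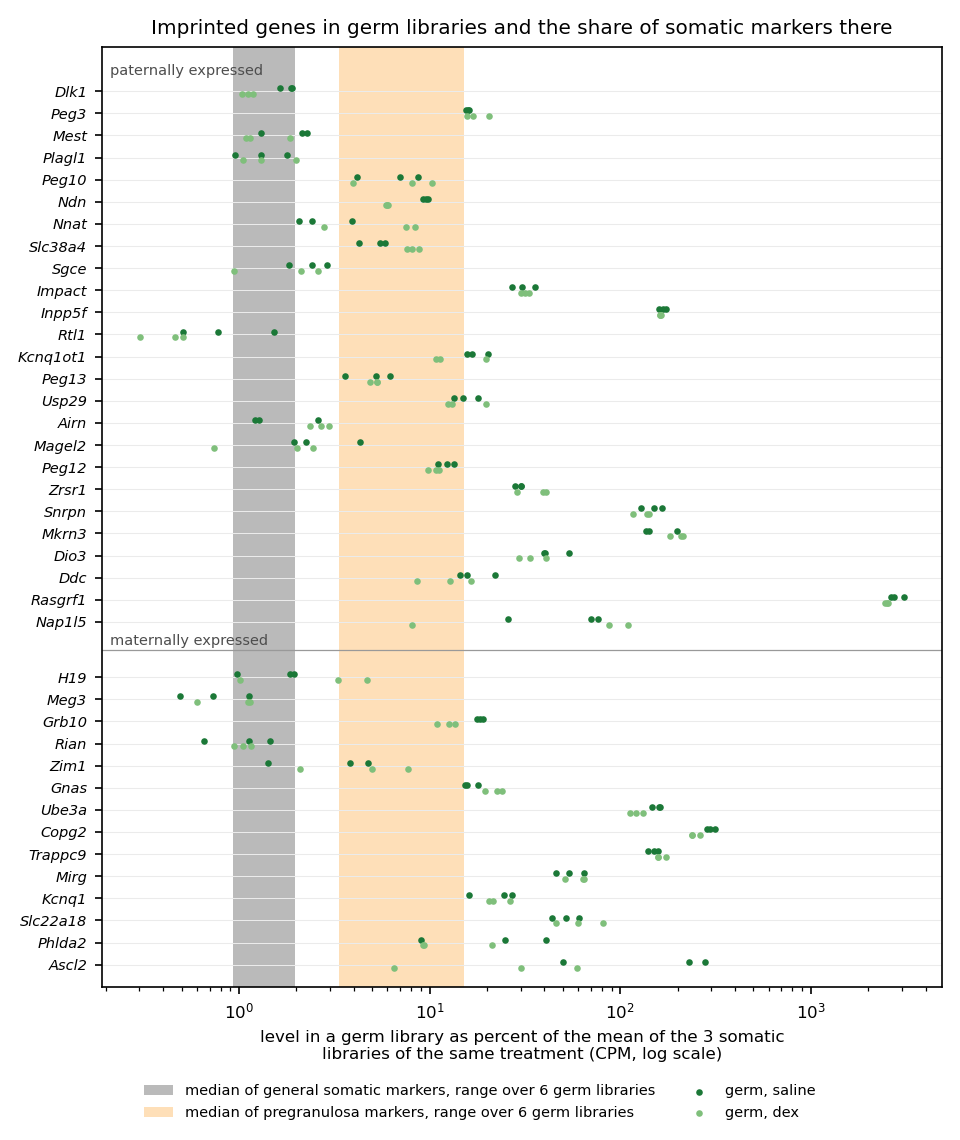
Level of each imprinted gene in each germ library as a percent of the mean of the 3 somatic libraries of the same treatment (log axis), with the range over the 6 germ libraries of the median percent of general somatic markers (grey band) and of pregranulosa markers (orange band). Meg3, Rian and Rtl1 lie in or left of the grey band and Rasgrf1 lies furthest to the right.

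The second comparison asked which imprinted genes changed with dex in somatic cells. All 39 passed the filter and 9 were called by edgeR with BH adjustment, 8 higher and 1 lower after dex, where 4.81% of all 16556 genes tested were called higher and 3.36% lower. Higher were 6 of the 25 paternally expressed genes (Dlk1, Rtl1, Plagl1, Kcnq1ot1, Ndn and Sgce) and 2 of the 14 maternally expressed ones (H19 and Grb10), and the lower one was the paternally expressed Nnat. The median log2 fold change (dex minus saline) of the 39 was 0.17, beside 0.00 over all genes. All 9 changes were below 1 log2 unit. The induction of Fkbp5, a standard GR target, from 129 ± 13 to 313 ± 11.3 CPM (mean ± SD, n = 3) in the same libraries gives a scale for these changes.

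Of the 3 protein-coding genes of the paternal copy in the Dlk1-Dio3 domain, Dlk1 and Rtl1 rose and Dio3 was not called. Dlk1 (chr12:109452823-109463336) was at 2432, 2237 and 2262 CPM after saline and 3523, 3588 and 2909.8 CPM after dex, with every dex library above every saline library. The rise was 1.45-fold (log2 fold change 0.54, with SE 0.08 and edgeR adjusted p = 0.000666). Rtl1 went from 41.8, 38.2 and 34.5 to 68.5, 72.5 and 52.2 CPM, again without overlap (1.70-fold, 0.76, with SE 0.11 and edgeR adjusted p = 0.000845). The maternal noncoding RNAs of the domain were not called, with log2 fold changes of 0.26 ± 0.10 for Meg3 (SE), 0.17 ± 0.08 for Rian and -0.05 ± 0.16 for Mirg, nor was Dio3 (0.44 ± 0.21). Whether the coding and noncoding genes differed in their response was not tested.

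Plagl1 was at 492, 487 and 425 CPM after saline and 735, 702 and 589 CPM after dex, without overlap (log2 fold change 0.54, with SE 0.09 and edgeR adjusted p = 0.00147). Ndn (chr7:62346569-62350262), which encodes necdin, a growth suppressor of postmitotic cells, went from 248, 236 and 239 to 328, 331 and 276 CPM (0.38, with SE 0.07 and edgeR adjusted p = 0.00603). Its neighbours did not follow at the threshold: Magel2 changed by 0.20 ± 0.17 (SE), Peg12 by 0.21 ± 0.12 and Mkrn3 by -0.16 ± 0.21 on the log2 scale. Nnat (chr2:157560078-157562522), which encodes neuronatin, a small membrane proteolipid, fell from 166, 201 and 194 to 121, 118 and 154 CPM, again without overlap (-0.51, with SE 0.10 and edgeR adjusted p = 0.00673). These 5 calls (Dlk1, Rtl1, Plagl1, Ndn and Nnat) held when any 1 library was left out.

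The other 4 rises were smaller or less even and each lost its call when certain single libraries were left out. H19 was at 5282, 4838 and 5968 CPM after saline and 6537, 7209.9 and 6164 CPM after dex, so that the lowest dex library was just above the highest saline library (log2 fold change 0.31, with SE 0.08 and edgeR adjusted p = 0.0275). Grb10 (chr11:11930508-12038683) went from 1068, 1024 and 1015 to 1411, 1373 and 1148 CPM (0.35, with SE 0.08 and edgeR adjusted p = 0.0127). In neither gene did the groups overlap. H19 lost its call without dex replicate 1 or 2 or saline replicate 1 or 2 (edgeR adjusted p = 0.0522, 0.136, 0.122 and 0.18). Grb10 lost its call without dex replicate 1 or 2 or saline replicate 2 or 3 (edgeR adjusted p = 0.0612, 0.0728, 0.0669 and 0.0632).

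Sgce (chr6:4674350-4747207), epsilon-sarcoglycan, went from 77.1, 72.1 and 74.3 to 89.6, 93.7 and 86.4 CPM (0.28, with SE 0.06 and edgeR adjusted p = 0.0163). Kcnq1ot1 (chr7:143203458-143296549), the paternal antisense RNA that silences the Kcnq1 domain, was at 36.4, 36.6 and 37.0 CPM after saline and 45.0, 68.0 and 48.7 CPM after dex, a rise led by replicate 2 (0.56, with SE 0.13 and edgeR adjusted p = 0.0157). Sgce lost its call without dex replicate 2 or saline replicate 2 or 3 (edgeR adjusted p = 0.0834, 0.0954 and 0.0622), and Kcnq1ot1 without saline replicate 1, 2 or 3 (edgeR adjusted p = 0.0711, 0.0609 and 0.0724). Over all omissions the number of genes called higher lay between 5 and 11. It was 5 without replicate 2 of the dex libraries, without replicate 2 of the saline libraries (where Zim1 was gained) and without replicate 3 of the saline libraries, and 11 without replicate 3 of the dex libraries, when Meg3, Mest and Rian were added. Of all genes tested, 797 were called higher in the main fit. Under the omissions that gave 5 this was 511, 503 and 523, and under the one that gave 11 it was 1029.

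Other loci of high somatic level were not called. Mest had a log2 fold change of 0.20 ± 0.08 (SE) and Peg3 of 0.10 ± 0.06. Peg10, a retrotransposon-derived gene that shares its start region with Sgce, was at 327, 322 and 292 CPM after saline and 256, 284 and 303 CPM after dex (-0.15 ± 0.08). Among all genes not called, values ran from -0.32 for Slc22a18 to 2.08 for Ascl2, which had at most 1.19 CPM in any somatic library.

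**Figure D4:**
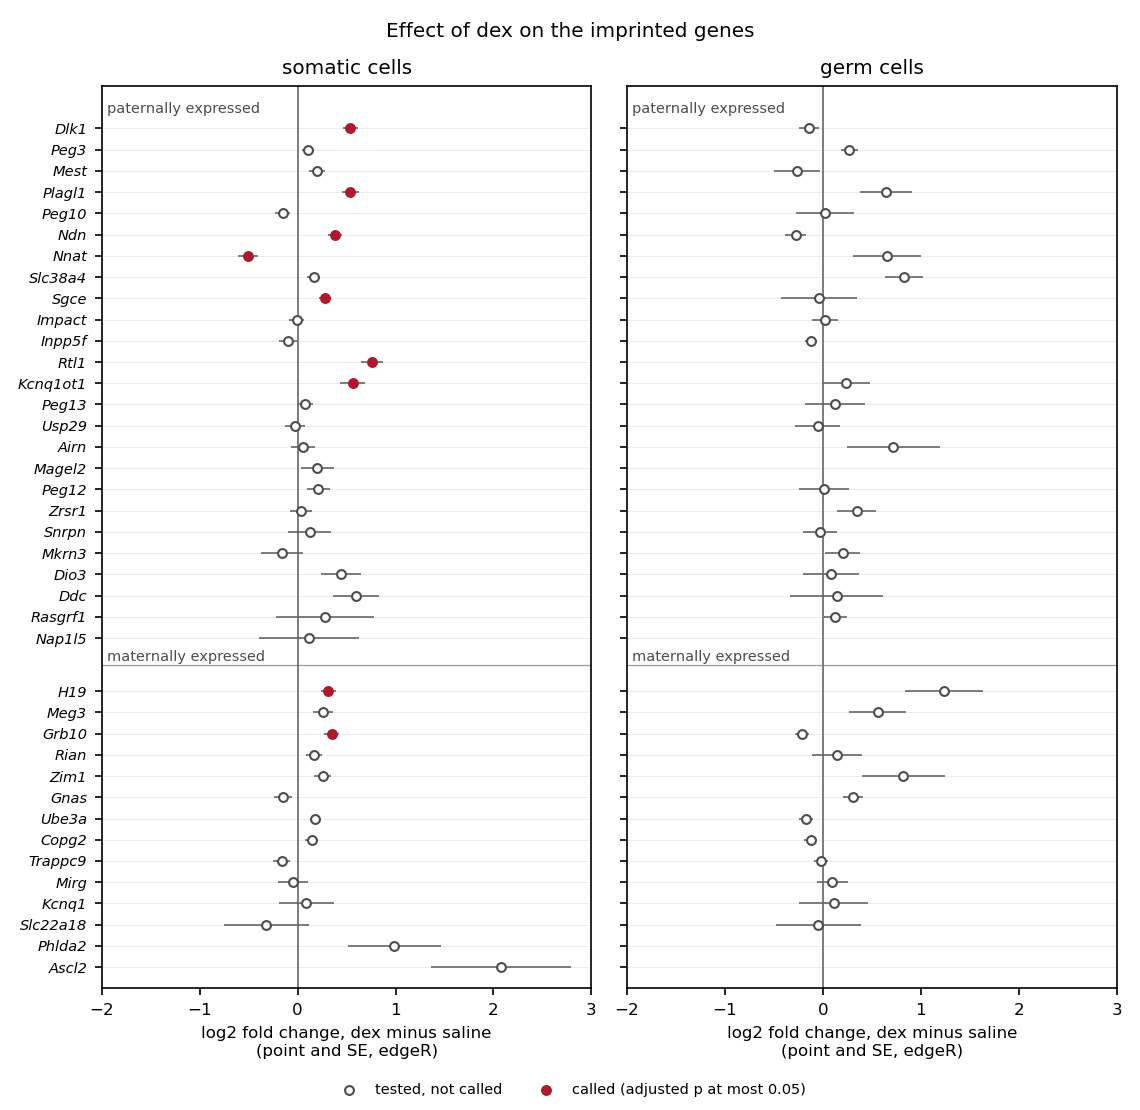
Log2 fold change of dex against saline with its standard error for each imprinted gene in somatic cells (left) and germ cells (right), where red points are called by edgeR at an adjusted p of 0.05 or less and a row without a point was not tested. In somatic cells 8 genes lie to the right in red and Nnat to the left, and no germ cell point is red.

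The makeup of the somatic fraction moved between libraries as well. Fewer cells of a type and less RNA per cell cannot be told apart in bulk libraries. After dex, 5 of 10 macrophage markers were called lower and none higher (summed 198 to 258 CPM after saline, 59.8 to 147 CPM after dex). Of 10 endothelial markers 3 were lower and 1 higher, of 12 stromal markers 1 was higher, and of 11 pregranulosa markers 1 was lower. Perivascular markers (8) had 1 higher and 1 lower, and general somatic markers (24) had 3 higher and 1 lower. None of 10 erythroid markers was called. Their sum was 12447, 10161 and 7400 CPM after saline and 8126, 16522 and 3291 CPM after dex, in replicate order. Summed stromal markers were at 25082, 22576 and 24801 CPM after saline and 26792, 27553 and 20965 CPM after dex, and replicate 3 of the dex libraries, the lowest of these, was also the lowest dex library for Dlk1, Rtl1, Plagl1, Ndn, H19, Grb10 and Sgce. The part of cell makeup in these results was not tested.

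The third comparison asked whether dex changed imprinted genes in germ cells. Of the 34 genes that passed the filter none was called by edgeR with BH adjustment, 8 had an unadjusted p under 0.05, and DESeq2 also called none. Of all 16857 genes tested 0.208% were called, and 11.6% (1963 genes) had an unadjusted p under 0.05. The median log2 fold change was 0.10, beside 0.01 over all genes.

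H19 had the largest estimate. Its germ libraries held 809, 1687 and 1801 counts after saline and 1020, 4804 and 3692 counts after dex, or 52.2, 99.6 and 105 CPM and 66.7, 311 and 220.4 CPM. The groups overlapped (log2 fold change 1.24, with SE 0.40 and edgeR adjusted p = 0.282). Whether H19 was called depended on the setting. Without dex replicate 1 it was called at a value of 1.63 with edgeR adjusted p = 0.00518, and over all omissions the adjusted p ran from 0.00518 to 0.67. With all 6 libraries it was also called with the replicate number as a block (1.07, edgeR adjusted p = 0.0418) and without the low-count filter (1.23, edgeR adjusted p = 6.25e-53). The very small value of that last setting should not be read as stronger support. It came from the same 6 libraries, whose groups overlapped, at nearly the fold change of the main fit (1.24 with SE 0.40). Of all genes 420 were called in that setting, against 35 in the main fit. The pregranulosa marker share was 4.20%, 7.69% and 6.08% in the saline germ libraries and 3.35%, 15.1% and 9.61% in the dex germ libraries. The 2 libraries highest in H19 were thus also the 2 highest in that share, as they were for Zim1 (6.67, 24.6 and 15.8 CPM after dex) and Nnat (3.66, 10.9 and 9.85 CPM after dex). Macrophage markers summed to 33.7 to 44.2 CPM in saline germ libraries and 37.6 to 48.5 CPM in dex germ libraries, and their share by the median was 4.74% ± 1.76 and 11.6% ± 4.33 (SD, n = 3) of somatic levels that were themselves lower after dex. The part of somatic RNA in these values was not tested.

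Slc38a4 (chr15:96994820-97055956), a paternally expressed amino acid transporter, was at 4.77, 5.08 and 3.71 CPM in saline germ libraries and 7.39, 8.55 and 7.82 CPM after dex. The groups did not overlap, but the difference was not called (log2 fold change 0.83, with SE 0.19 and edgeR adjusted p = 0.143). Ndn was at 23.5, 22.9 and 22.2 CPM after saline and 18.6, 18.9 and 18.3 CPM after dex, lower in all 3 dex libraries, and was not called either (-0.28, with SE 0.11 and edgeR adjusted p = 0.359). Dlk1 stayed between 34.6 and 43.8 CPM in all germ libraries (-0.14 ± 0.10 SE), and Grb10 was at 191, 196 and 183 CPM after saline and 144, 165 and 177 CPM after dex (-0.22 ± 0.07 SE). The germ-enriched Rasgrf1 and Copg2 had log2 fold changes of 0.13 ± 0.11 and -0.12 ± 0.06 (SE). Rtl1, Magel2, Phlda2, Ascl2 and Nap1l5 were not tested in germ cells, where each stayed at or below 1.00 CPM.

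**Figure D5:**
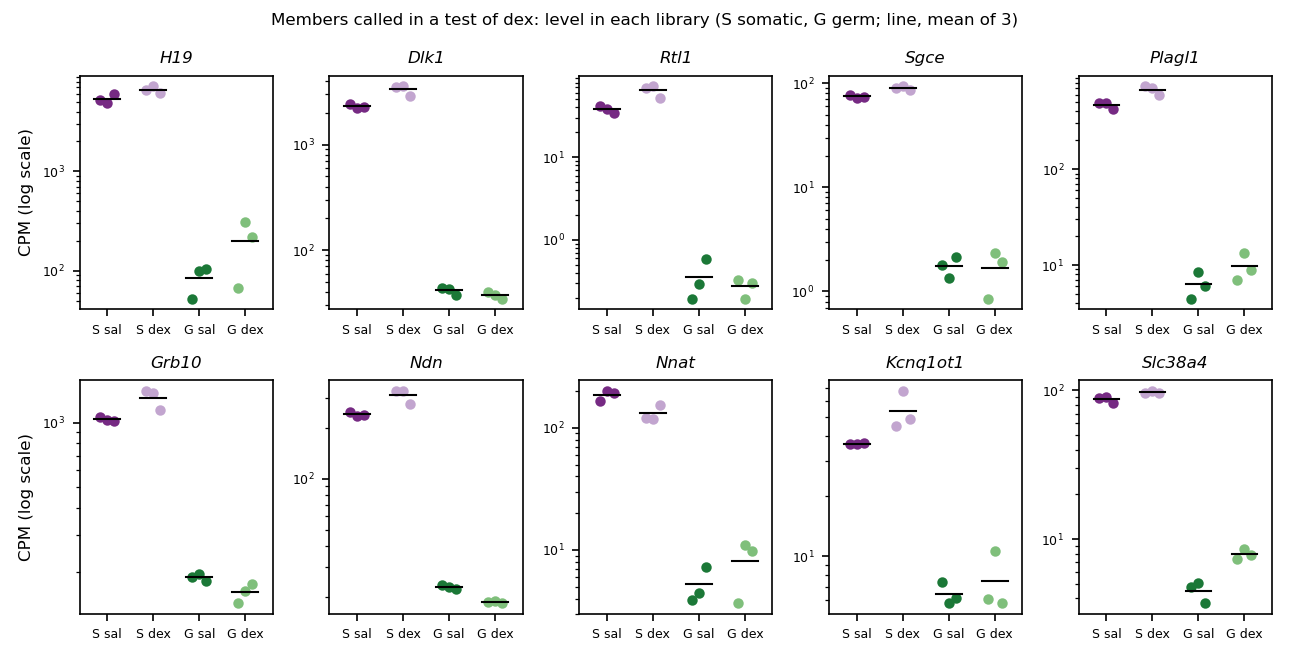
CPM (log axis) in each library of the 10 imprinted genes called in any test of dex, with somatic (purple, S) and germ (green, G) libraries after saline and dex and a line at the mean of 3. The somatic dex points all lie above the saline points for the 8 genes called higher there and below them for Nnat, and Slc38a4 is the gene whose germ points rise clear of saline, while the H19 points in germ cells after dex spread from 66.7 to 311 CPM.

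The last comparison asked whether the dex effect itself differed between the cell types, by a test of the difference (effect in germ cells minus effect in somatic cells) over all 12 libraries. All 39 genes were tested and 4 were called by edgeR with BH adjustment, 3 lower and 1 higher in germ cells, where 1.13% of all 19390 genes tested were called lower and 0.49% higher. The lower ones were Dlk1 (-0.69, with SE 0.13 and edgeR adjusted p = 0.0128), Ndn (-0.67, with SE 0.11 and edgeR adjusted p = 0.00477) and Grb10 (-0.57, with SE 0.12 and edgeR adjusted p = 0.0171), each called higher with dex in somatic cells and not called in germ cells. The higher one was Slc38a4 (0.65, with SE 0.15 and edgeR adjusted p = 0.0343).

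The calls of Dlk1 and Ndn held under every omission of a library, that of Grb10 was lost without somatic dex replicate 1 or 2 or somatic saline replicate 2 or 3 (edgeR adjusted p = 0.0531, 0.0526, 0.0536 and 0.0563). The call of Slc38a4 was lost under 9 of 12 omissions (edgeR adjusted p = 0.0532 to 0.104) and held without germ dex replicate 1 or germ saline replicate 1 or 2. In germ libraries Dlk1 was at 1.03% to 1.90% of its somatic level, close to the general marker share, whereas Ndn was at 5.88% to 9.76% and Grb10 at 11.0% to 19%. The larger pregranulosa share was 3.35% to 15.1%. Ndn was above it in 4 of the 6 germ libraries, Grb10 in 5 and Dlk1 in none. The part of somatic RNA in these values was not tested. For Rtl1, Plagl1, Kcnq1ot1, H19, Sgce and Nnat, which changed with dex in somatic cells, the difference was not called, with values from -1.15 ± 0.55 (SE) for Rtl1 to 1.15 ± 0.35 for Nnat, so a different response in the 2 cell types was not shown for them.

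A wider set of 45 imprinted genes outside the list was counted in the same fits. In saline libraries 39 were tested, 26 of them lower and 10 higher in germ cells (42.9% and 43.1% among all genes). Those higher included the zinc finger gene Zdbf2 (319 ± 26.4 CPM in germ cells against 38.2 ± 3.27 in somatic cells, mean ± SD, n = 3, log2 fold change 3.06 ± 0.09 SE) and Zfp264 from the Peg3 domain (52.3 ± 2.75 against 0.29 ± 0.0874 CPM, 7.44 ± 0.19 SE), both named after their values were seen. With dex none of 32 was called in germ cells, beside 0.208% of all genes. In somatic cells 3 of 37 were called by edgeR with BH adjustment, 1 higher and 2 lower, a share near the 8.18% called among all genes in either direction.

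The higher one was Cdkn1c, a maternally expressed inhibitor of cyclin-dependent kinases, which rose from 602 ± 26.6 to 1115 ± 15.9 CPM (mean ± SD, n = 3, log2 fold change 0.90 ± 0.06 SE, with edgeR adjusted p = 6.78e-07). In germ cells Cdkn1c stood at 78.6 ± 5.95 CPM after saline and 72.5 ± 4.79 CPM after dex, and the difference of effects was -1.0 (edgeR adjusted p = 3.03e-05). The lower ones were H13, a signal peptide peptidase (150 ± 4.38 to 129 ± 3.28 CPM, -0.21, with SE 0.06 and edgeR adjusted p = 0.0393), and Begain, next to Dlk1 (48.8 ± 1.82 to 38.8 ± 3.99 CPM, -0.32, with SE 0.09 and edgeR adjusted p = 0.0416). Igf2, the growth factor that shares its control region with H19, was at 314 ± 12.2 CPM after saline and 360.0 ± 86.0 CPM after dex in somatic cells and was not called (0.20 ± 0.13 SE).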

How the data were processed

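RNA from 12 libraries (3 each of germ and somatic cells after dex or saline) was analysed. The authors aligned paired poly-A reads to mm10 with HISAT2 2.0.5 and counted reads per gene with featureCounts 1.5.0-p3, and the deposited counts were used as given. The strand setting and the treatment of reads with several alignments were not stated. The deposited FPKM, scaled by the authors to gene length and depth, served only to compare genes. Their DESeq2 1.20.0 comparisons hold their own fold changes and p-values and were not used.

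Each of the comparisons was fitted to all genes with edgeR 4.0.16 in R 4.3.3 (quasi-likelihood test, TMM scaling, filterByExpr, no covariate, Benjamini-Hochberg (BH) adjusted p of 0.05 or less), the difference of effects over all 12 libraries and the others over their own 6. CPM is the count scaled to the library total and TMM factor, and an SE is that implied by the test statistic. Alternatives were upper-quartile scaling, no low-count filter, a replicate block, DESeq2 1.42.0 and each library left out. The fit was tested on simulated data. P-values measure the spread between pools of 3 per group. Germ libraries held 14658503 to 17616664 counts and somatic libraries 15161804 to 18245507, and a floor of 3 counts equalled 0.169 to 0.196 CPM.

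Full values are given for genes called in a dex test, for the 6 largest and 6 smallest germ against somatic fold changes at a mean of at least 1 CPM, and for the 5 highest in FPKM per cell type. Other imprinted genes are given where called with dex and regulators for the 4 highest germ levels, and further genes were picked with their values in view. The members, lists and tests were chosen with earlier results of these data known. Gene coordinates are those of the count table (GRCm38), equal to GENCODE M21 for 38 of 39 genes, and promoters are from RefSeq, matched by symbol for 31.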

Additional observations from a re-analysis of the deposited data

Results flagged for a closer look

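The effect of dex differed between germ cells and somatic cells for 4 imprinted genes by the test of the difference itself. For Dlk1 the effect in germ cells minus that in somatic cells was -0.69 on the log2 scale, from -0.14 in germ cells and 0.54 in somatic cells. The value for Ndn was -0.67, from -0.28 and 0.38, and the lower germ libraries add to the higher somatic ones. Grb10 gave -0.57, from -0.22 and 0.35. Slc38a4 gave 0.65, from 0.83 and 0.16, and is the one gene of the 4 whose somatic effect was not called. The calls of Dlk1 and Ndn held under every omission of a library. Grb10 lost its call under some omissions, and Slc38a4 under most of them and with the replicate block. No cause of these differences was tested.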

How the results depend on the processing

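Upper-quartile scaling and DESeq2 left each count of called imprinted genes within 1.5 times its value. Without the low-count filter 4 genes were called higher with dex in germ cells (H19, Peg3, Slc38a4 and Zim1), where 420 of all genes were called against 35 with the filter. In the same setting 5 imprinted genes were called with a higher effect in germ cells than in somatic cells. Of all 36214 genes tested there 351 were, against 95 of 19390 with the filter. The main fits did not take the replicate numbers to pair the libraries, since not every same-numbered correlation exceeded 0.1. Between germ and somatic libraries of one treatment, same-numbered correlations were all positive (0.0798 to 0.134) and other-numbered ones all negative (-0.0997 to -0.0141). These correlate deviations within groups of 3 libraries. Positive same-numbered values therefore pull the other-numbered ones below 0, so the negative signs are not separate evidence. Between dex and saline libraries same-numbered correlations ran from -0.0165 to 0.215. Germ and somatic libraries of one number may thus be paired, which the main fits leave out. Slc22a18 lost its call between the cell types in saline libraries with a replicate block, with DESeq2 and without the low-count filter. It also lost its call without germ saline replicate 1 or 2 or somatic saline replicate 2 or 3. Snrpn lost its call in saline libraries without somatic saline replicate 1 or 2. In dex libraries Ascl2 lost its call with DESeq2 and without germ dex replicate 2 or 3 or somatic dex replicate 1 or 3. With the replicate block H19 was called in germ cells (1 gene higher, log2 fold change 1.07, edgeR adjusted p = 0.0418), 0 genes had a higher effect in germ cells (Slc38a4 0.66, adjusted p = 0.0536), and no other call on these genes with dex changed. Leaving out 1 library at a time gave 0 to 1 genes called higher in germ cells, 5 to 11 called higher in somatic cells, and 0 to 3 with a higher and 2 to 4 with a lower effect in germ cells. The matching ranges over all genes were 9 to 60, 503 to 1029, 41 to 204 and 102 to 218. Effects that were not called changed sign under some omissions, for Sgce in germ cells (-0.34 to 0.25), Kcnq1ot1 in germ cells (-0.10 to 0.40) and the difference for Plagl1 (-0.18 to 0.35). The dex minus saline difference of the general somatic marker share in germ libraries (0.179 percentage points) was -0.334 with endothelial markers, 0.0282 with stromal, 3.38 with pregranulosa and 6.84 with macrophage markers (11.6% after dex against 4.74% after saline, exact permutation p = 0.1, the smallest possible here), and ran from -0.068 to 0.455 over the omissions, negative without germ dex replicate 2 (-0.068) and without germ saline replicate 1 (-0.00719). Depth limits Rtl1, Magel2, Phlda2, Ascl2 and Nap1l5 in germ cells.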

Other observations

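Of 18 genes that set, read or erase imprints, 17 were tested between the cell types in saline libraries, with 6 higher and 8 lower in germ cells (43.1% and 42.9% among all genes). For dex in germ cells 17 were tested, with none called by edgeR and 4 at an unadjusted p under 0.05, beside 11.6% of all genes. For dex in somatic cells 15 were tested and 1 was called, beside 8.18% of all genes. The 4 with the highest germ cell level after saline were Trim28, the corepressor that protects imprints in the embryo, at 578 ± 24.6 CPM (mean ± SD, n = 3) against 662 ± 14.4 in the somatic libraries, the histone methyltransferase gene Setdb1 at 454 ± 38.4 against 118 ± 5.39 CPM, Uhrf1, which brings the maintenance methyltransferase to DNA, at 318 ± 11.3 against 139.8 ± 2.22 CPM, and the maintenance methyltransferase gene Dnmt1 itself at 230.1 ± 12 against 187 ± 9.84 CPM. The one called with dex, named after its values were seen, was Tet1, an enzyme that oxidizes methylated cytosine. In somatic cells its log2 fold change was 0.41 ± 0.08 (SE), with edgeR adjusted p = 0.00456.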
